A study of Homo sapiens with 15 samples.

Results

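Knockdown of RSAD2 was examined by RNA-seq in 12Z cells, an immortalized line of human endometriotic epithelial cells, to find which transcripts differ once the gene is silenced. The comparison takes 6 of the 15 libraries in the series: 3 from cells given RSAD2 siRNA (siRSAD2) and 3 from cells given non-targeting siRNA (control). Both groups were chosen by their treatment labels alone, and both carried the pBabe control vector, which holds no insert, and vehicle in place of insulin. In both, siRNA was delivered first, the plasmid followed after 24 hours, serum was withdrawn another 24 hours later, and vehicle was given after 4 hours without serum for a further 24 hours. The other 9 libraries also received RSAD2 siRNA, with insulin, with the PIK3CA H1047R oncogene, or with both, so the control group is the only one in which RSAD2 was not targeted. Per the methods, each condition was repeated in 3 independent experiments.

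RSAD2 encodes viperin, a radical S-adenosylmethionine enzyme of the endoplasmic reticulum and lipid droplets. Interferons and viral infection induce it, and it converts cytidine triphosphate into a modified nucleotide that stops viral RNA polymerases. Viperin is also known to bind proteins of sterol synthesis, fatty acid oxidation and iron-sulfur cluster assembly, so genes of these processes are described below beside interferon genes. The model has limits set by its design: 12Z is 1 cell line, knockdown was transient, and each siRNA was a single pool of oligonucleotides. With 1 pool against RSAD2, loss of viperin and any action of the pool on other transcripts cannot be told apart. Control libraries are numbered 4 to 6 and siRSAD2 libraries 1 to 3, and the sources used here do not say whether the 2 sets were prepared side by side.

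Gene counts per library were 26.3 to 29.3 M with siRSAD2 and 24.3 to 29.2 M in control. One library stood apart. In siRSAD2 library 3, 8.31% of read pairs were unmapped and 0.413% of gene counts fell on pseudogenes. The other siRSAD2 libraries had 4.16% and 4.40% of pairs unmapped and at most 0.295% of counts on pseudogenes, and control libraries had 4.10% to 4.32% unmapped and 0.297% to 0.300% on pseudogenes. A total of 471 genes with at least 10 counts in siRSAD2 library 3 exceeded 3 times their highest level elsewhere in the series, against 0 to 3 genes by the same criterion in each of the other 14 libraries. Of these 471, 415 were pseudogenes and 52 protein-coding genes, and together they held 0.0872% of the library. Each result below was therefore also obtained without siRSAD2 library 3.

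Among the raised protein-coding genes were leukocyte genes. Levels are given in CPM, which are read counts scaled to the size of each library. LCP1, an actin-bundling protein of blood cells, had 0.449, 0 and 13.2 CPM in siRSAD2 libraries, against 0.179, 0.467 and 0.215 CPM in control libraries. LCK, a kinase of T cells, had 0, 0 and 5.38 CPM in siRSAD2 libraries and 0 CPM in each control library. PTPRC, the leukocyte surface phosphatase CD45, had 1.35, 0.884 and 9.03 CPM in siRSAD2 libraries, against 0.715, 1.19 and 1.59 CPM in control libraries. Only siRSAD2 library 3 was high for these genes. Over 8 measured immune markers of a list of 12, summed levels were 5.30 to 12.5 CPM in siRSAD2 libraries, with the highest in library 3, and 4.47 to 6.61 CPM in control libraries, and PTPRC was the only 1 called higher, with 0 called without siRSAD2 library 3 or control library 4 or 5. CD8A and CD4 stayed below 1 CPM on average in both groups. The part of this library in the results was not tested other than by leaving it out.

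The epithelial label was checked against markers. KRT8, a keratin of simple epithelia, had 849, 907 and 911 CPM in siRSAD2 libraries, against 1134, 1151 and 1102 CPM in control libraries, and KRT18, its filament partner, had 615, 657 and 673 CPM in siRSAD2 libraries, against 715, 693 and 716 CPM in control libraries. In contrast, EPCAM, an epithelial adhesion molecule, averaged 0.232 ± 0.133 CPM in siRSAD2 cells and 0.275 ± 0.135 CPM in control cells and CDH1, E-cadherin, 0.459 ± 0.214 CPM in siRSAD2 cells and 0.776 ± 0.276 CPM in control cells. Keratins were thus present, whereas both epithelial surface markers were near 0 in every library. Of 15 measured epithelial markers, 5 were called lower and 0 higher (4 and 0 without library 3), and their summed level was 1948 to 2085 CPM in siRSAD2 libraries and 2409 to 2446 CPM in control libraries. Stromal genes such as VIM, the filament protein vimentin, were abundant, at 1966 ± 54.8 CPM in siRSAD2 cells and 2372 ± 34.8 CPM in control cells (SD, n = 3). Stromal markers summed to 8074 to 8179 CPM in siRSAD2 libraries and 8387 to 8828 CPM in control libraries, and 6 of 15 were called higher and 8 lower. The part of these shifts in the gene groups described here was not tested.

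RSAD2 itself (ENSG00000134321.12, chr2:6865557-6898239, plus strand, hg38) was low in every siRSAD2 library. It had 0.691, 0.0768 and 0.208 CPM in siRSAD2 libraries, against 3.003, 3.16 and 3.69 CPM in control libraries, which corresponds to 20, 2 and 6 counts against 84, 88 and 86 counts. No siRSAD2 library overlapped the controls, and the mean was 10.1-fold lower. The log2 fold change was -3.29 ± 0.42 (SE, edgeR adjusted p = 6.62e-07). An exact two-sided permutation test of the 6 levels gave p = 0.1, the smallest value that 20 splits allow. Control cells themselves held under 4 CPM of RSAD2 mRNA. CMPK2, the interferon-induced kinase that neighbours RSAD2 and supplies its nucleotide substrate, did not pass, with 1.09 ± 0.452 CPM in siRSAD2 cells and 0.919 ± 0.324 CPM in control cells.

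Differential gene expression (DGE) between siRSAD2 and control was broad in number and mostly small in size. Of 23184 genes tested, 4530 passed an edgeR adjusted p of 0.05 (19.5%), with 2276 higher (9.82%) and 2254 lower (9.72%) in siRSAD2 cells. Without library 3, 3585 of 22875 genes passed (15.7%), 1728 higher (7.55%) and 1857 lower (8.12%). The 2 fits shared 3420 calls in the same direction, 1638 higher and 1782 lower, while 0 genes were called in opposite directions. A further 1110 genes passed only with all libraries and 165 only without library 3. The median size of a called change was 0.36 on the log2 scale, and 71.4% of called genes changed less than 1.5-fold. Changes of at least 2-fold numbered 639 higher and 97 lower with all libraries, and 368 higher and 77 lower without library 3. These 2-fold rises numbered 425 without control library 5, and 2-fold falls 64 without control library 6.

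Leaving out library 3 removed more rises than falls over all genes, but fewer rises than falls among protein-coding genes. Calls also dropped without control library 5, to 1644 higher and 1769 lower. None of the 196 raised genes that were called higher with all libraries was called without siRSAD2 library 3. For pseudogenes, 211 were called higher and 24 lower with all libraries, against 17 higher and 29 lower without library 3. Of 14860 protein-coding genes, 1874 were called higher and 2167 lower with all libraries, and 1564 and 1787 without library 3. These shares are larger than those over all genes tested, and list counts below stand beside them. Long noncoding RNAs leaned to rises in both fits, with 171 higher and 53 lower with all libraries, and 134 higher and 33 lower without library 3. Genes described from here on passed in both fits unless stated otherwise, and bulk RNA cannot tell fewer expressing cells from less RNA per cell.

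**Figure D1:**
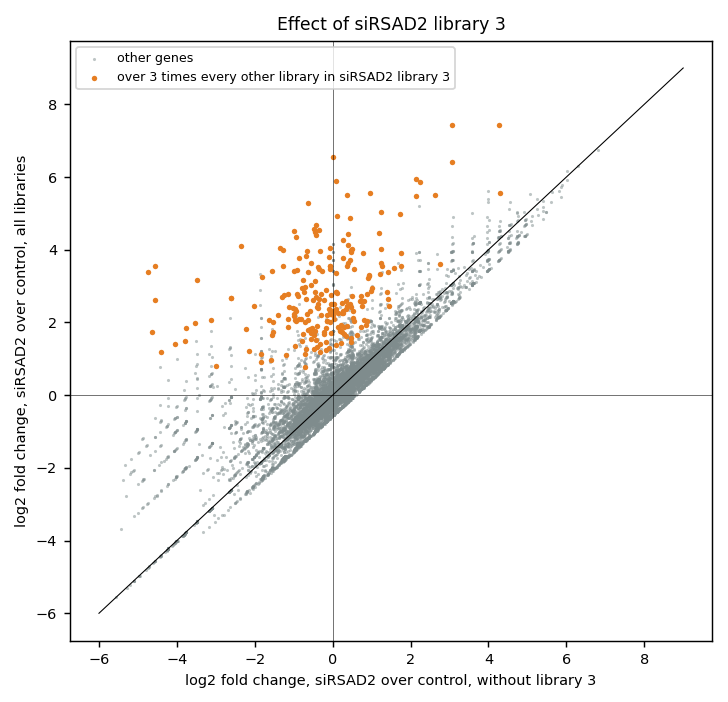
Log2 fold change of siRSAD2 over control with all libraries (vertical axis) against the same without siRSAD2 library 3 (horizontal axis), 1 point per gene tested in both fits; the line marks equality. Orange points are the genes that exceeded 3 times their highest level elsewhere in library 3, and they lie above the line, while most other genes lie close to it.

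Leading falls besides RSAD2 included FSTL1, LAPTM4A, GJA1, CXCL12 and C3. FSTL1, a secreted follistatin-like glycoprotein, had 143, 151 and 147 CPM in siRSAD2 libraries, against 603, 641 and 629 CPM in control libraries. LAPTM4A, a lysosomal membrane protein, had 122, 127 and 125 CPM in siRSAD2 libraries, against 439, 452 and 449 CPM in control libraries. For both genes the libraries of each group lay close together, and the groups were far apart. FSTL1 was 4.24-fold lower and LAPTM4A 3.58-fold lower, with log2 fold changes of -2.08 ± 0.05 and -1.84 ± 0.05 (SE, edgeR adjusted p = 2.5e-24 and 1.92e-21). GJA1, the gap junction protein connexin 43, had 87.2, 90.3 and 96.5 CPM in siRSAD2 libraries, against 294, 289 and 288 CPM in control libraries. CXCL12, a chemokine that attracts leukocytes, had 33.98, 36.2 and 31.04 CPM in siRSAD2 libraries, against 97.6, 97.7 and 95.5 CPM in control libraries. C3, the central complement protein, had 12.1, 12.1 and 17.05 CPM in siRSAD2 libraries, against 34.7, 44.9 and 39.5 CPM in control libraries. Again no siRSAD2 library reached any control library, and the log2 falls were 1.67 ± 0.05, 1.52 ± 0.07 and 1.53 ± 0.11.

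The other leading falls were FAP, KDM1B, SELENOP, RARRES2, RARRES1 and MTFP1. FAP, a serine protease of the fibroblast surface, had 3.28, 2.69 and 3.33 CPM in siRSAD2 libraries, against 10.2, 10.9 and 9.48 CPM in control libraries and fell by 1.72 ± 0.16 on the log2 scale. KDM1B, a demethylase of lysine 4 on histone H3, had 16.2, 14.6 and 15.3 CPM in siRSAD2 libraries, against 41.4, 42.5 and 44.3 CPM in control libraries and fell by 1.47 ± 0.08. Both were clear of the controls in each library. SELENOP, a secreted selenium carrier, averaged 0.668 ± 0.123 CPM in siRSAD2 cells and 2.03 ± 0.574 CPM in control cells. RARRES2, which encodes the adipokine chemerin, averaged 0.928 ± 0.250 CPM in siRSAD2 cells and 2.53 ± 0.535 CPM in control cells, and RARRES1, a retinoic acid-responsive membrane protein, 1.20 ± 0.166 CPM in siRSAD2 cells and 3.23 ± 0.677 CPM in control cells. MTFP1, a protein of mitochondrial fission, averaged 0.640 ± 0.375 CPM in siRSAD2 cells and 2.01 ± 0.673 CPM in control cells (SD, n = 3). These 4 genes rest on low counts, and their log2 falls were 1.59 ± 0.30, 1.46 ± 0.27, 1.44 ± 0.25 and 1.66 ± 0.36.

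**Figure D2:**
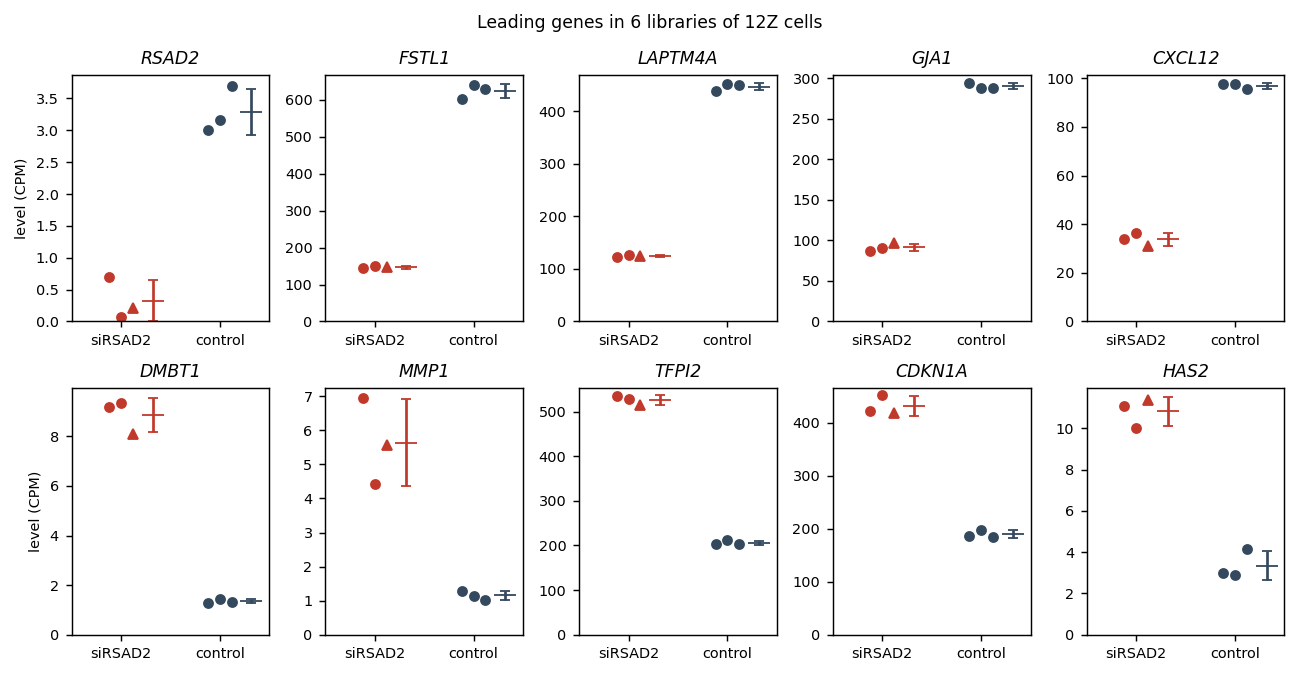
Level in CPM (vertical axes, each from 0) of 10 genes in siRSAD2 (red, left) and control (dark, right) libraries; points are libraries, the triangle is siRSAD2 library 3, and bars give the mean with SD (n = 3). RSAD2, FSTL1, LAPTM4A, GJA1 and CXCL12 are lower, and DMBT1, MMP1, TFPI2, CDKN1A and HAS2 higher, in every siRSAD2 library than in any control library.

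Leading rises included surface receptors and secreted proteins. DMBT1, a scavenger receptor-like glycoprotein of mucosal surfaces, had 9.16, 9.34 and 8.09 CPM in siRSAD2 libraries, against 1.29, 1.44 and 1.33 CPM in control libraries. ANXA10, a member of the calcium- and phospholipid-binding annexins, had 55.9, 52.5 and 50.2 CPM in siRSAD2 libraries, against 11.6, 13.1 and 11.4 CPM in control libraries. MMP1, an interstitial collagenase, had 6.95, 4.42 and 5.55 CPM in siRSAD2 libraries, against 1.29, 1.15 and 1.03 CPM in control libraries. All 3 exceeded every control library, although MMP1 varied more, relative to its mean, among siRSAD2 libraries than the others did. Mean levels were 6.56-fold, 4.40-fold and 4.88-fold higher, with log2 fold changes of 2.71 ± 0.16, 2.13 ± 0.08 and 2.28 ± 0.23 (edgeR adjusted p = 1.09e-13, 1.27e-17 and 5.87e-09). VIPR1, a receptor for vasoactive intestinal peptide, had 13.03, 16.02 and 14.7 CPM in siRSAD2 libraries, against 5.01, 4.17 and 3.004 CPM in control libraries and rose by 1.83 ± 0.14. PTGER4, a receptor for prostaglandin E2, averaged 1.62 ± 0.472 CPM in siRSAD2 cells and 0.425 ± 0.0801 CPM in control cells, and ANGPTL4, an inhibitor of lipoprotein lipase, 1.91 ± 0.279 CPM in siRSAD2 cells and 0.516 ± 0.0512 CPM in control cells. Their log2 rises were 1.91 ± 0.36 and 1.87 ± 0.30, at levels under 3 CPM.

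Noncoding transcripts were also among the leading rises. LNCAROD, a long noncoding RNA, had 7.54, 6.72 and 5.35 CPM in siRSAD2 libraries, against 1.36, 1.69 and 1.76 CPM in control libraries and rose by 2.03 ± 0.16. GAS6-AS1, transcribed opposite to GAS6, averaged 2.71 ± 0.479 CPM in siRSAD2 cells and 0.599 ± 0.166 CPM in control cells, and SH3TC2-DT, divergent to SH3TC2, 1.66 ± 0.266 CPM in siRSAD2 cells and 0.461 ± 0.122 CPM in control cells. MYH16, a myosin heavy chain pseudogene, averaged 2.07 ± 0.260 CPM in siRSAD2 cells and 0.470 ± 0.225 CPM in control cells. Among protein-coding genes, TMEM63C, which belongs to a family of osmosensitive channels, averaged 1.95 ± 0.226 CPM in siRSAD2 cells and 0.377 ± 0.218 CPM in control cells, and CEND1, a protein linked to cell cycle exit of neurons, 3.64 ± 0.0961 CPM in siRSAD2 cells and 0.914 ± 0.264 CPM in control cells. In each of these, every siRSAD2 library was above every control library, and log2 fold changes ranged from 1.85 to 2.32. MYH16 was not among the genes raised only in library 3.

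Most targets of the tumour suppressor p53 rose. This factor induces genes that arrest the cell cycle, feed back on p53 itself, repair DNA or promote cell death. Of 25 measured targets of arrest and feedback, 20 were called higher, 1 lower and 4 did not pass (18 higher and 1 lower without library 3). Their median log2 fold change was 0.48, beside 0.02 over all genes tested. CDKN1A, the p21 inhibitor of cyclin-dependent kinases, had 422, 452 and 419 CPM in siRSAD2 libraries, against 186, 198 and 184 CPM in control libraries. MDM2, the ubiquitin ligase that keeps p53 low, had 332, 302 and 289 CPM in siRSAD2 libraries, against 146, 141 and 138 CPM in control libraries. BTG2, an antiproliferative regulator, had 40.6, 43.03 and 38.6 CPM in siRSAD2 libraries, against 15.3, 15.6 and 14.2 CPM in control libraries. The groups did not overlap for any of the 3 genes, and the log2 rises were 1.19 ± 0.06, 1.12 ± 0.05 and 1.43 ± 0.07.

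Most of the remaining called targets rose less, apart from SPATA18 and ABCA12, which averaged under 2 CPM in both groups. SESN1 and SESN2, the stress-induced sestrins, rose by 0.70 ± 0.07 and 0.65 ± 0.14 on the log2 scale. TP53I3, a quinone oxidoreductase, rose by 0.74 ± 0.06, AEN, an apoptosis-enhancing nuclease, by 0.69 ± 0.07, and ZMAT3, a zinc finger RNA-binding protein, by 0.48 ± 0.06. GADD45A, a growth arrest protein, rose by 0.49 ± 0.06 and RRM2B, the p53-inducible ribonucleotide reductase subunit, by 0.30 ± 0.05. The exception was CCNG1, cyclin G1, which had 268, 257 and 260.1 CPM in siRSAD2 libraries, against 294, 329 and 322 CPM in control libraries and fell by 0.27 ± 0.05. POLH, PPM1D, TP53INP1 and TRIM22 did not pass. Targets of cell death gave 10 higher and 0 lower calls of 12 measured in both fits, with a median of 0.37. FAS, a death receptor, had 31.6, 32.7 and 27.9 CPM in siRSAD2 libraries, against 16.3, 20.9 and 16.9 CPM in control libraries and rose by 0.77 ± 0.08. BBC3, the BH3-only protein PUMA, rose by 0.79 ± 0.13, TNFRSF10B, a receptor for TRAIL, by 0.41 ± 0.04, and BAX, an effector of mitochondrial permeabilisation, by 0.31 ± 0.05.

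Mitosis genes moved the other way. Of 36 measured, 31 were called lower, 0 higher and 5 did not pass (28 lower without library 3), with a median of -0.33. Falls were small, and the largest called was -0.56 for DLGAP5, a spindle protein. CCNB1, cyclin B1, had 338, 334 and 357 CPM in siRSAD2 libraries, against 429, 446 and 462 CPM in control libraries. CDK1, the kinase it activates, had 231, 245 and 224 CPM in siRSAD2 libraries, against 269.6, 313 and 315 CPM in control libraries. HMMR, a spindle and hyaluronan-binding protein, had 239, 244 and 236 CPM in siRSAD2 libraries, against 301, 343 and 345 CPM in control libraries. Groups did not overlap in any of these genes, and log2 falls were 0.38 ± 0.04, 0.36 ± 0.06 and 0.46 ± 0.06 (edgeR adjusted p = 1.01e-07, 7e-05 and 2.36e-06). The kinases TTK, BUB1, AURKA and PLK1 fell by 0.49, 0.40, 0.36 and 0.27, and the kinesins KIF20A and KIF11 by 0.38 and 0.30. Cytokinesis factors ANLN and ECT2 fell by 0.41 and 0.37, and the centromere proteins CENPA and CENPE by 0.49 and 0.44. AURKB, BUB3, SPC25, NUSAP1 and PRC1 did not pass. FOXM1, a transcription factor of mitotic genes, passed only with all libraries, at -0.14.

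**Figure D3:**
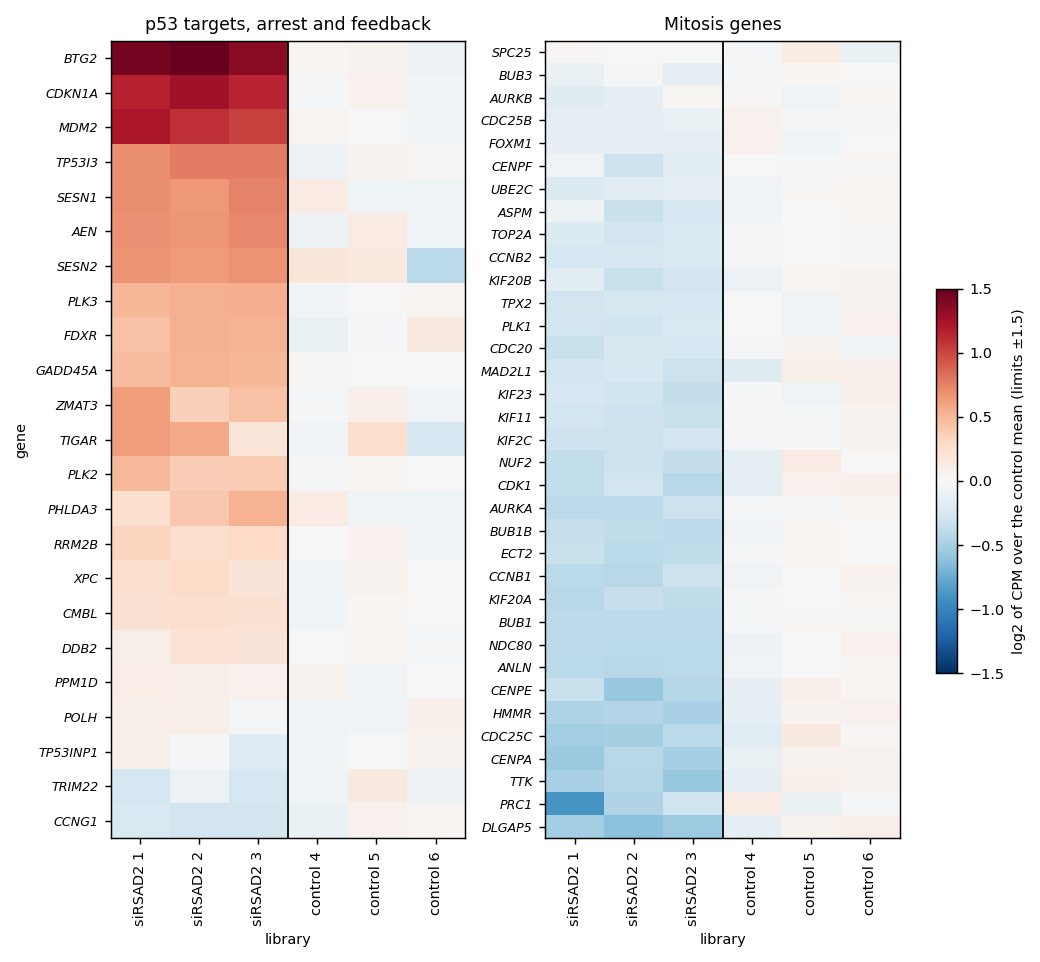
Log2 of the CPM of each gene (rows, ordered by fold change) over its control mean, in siRSAD2 libraries 1 to 3 (left of the line) and control libraries 4 to 6 (columns), for p53 targets of arrest and feedback and for mitosis genes with a mean of at least 1 CPM. Red is above and blue below the control mean; BTG2, CDKN1A and MDM2 are high in all 3 siRSAD2 libraries, and 31 of 36 mitosis genes measured were called lower.

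Promoters of mitosis genes are shown because many of them hold one sequence element. The cell cycle genes homology region (CHR), TTTGAA, is known to bind the DREAM and MuvB complexes that silence mitotic genes. It was searched on both strands, as TTTGAA or TTCAAA, in RefSeq promoters (GRCh38.p14, 250 bases before to 50 after the start). It was found in 22 of the 30 mitosis promoters that had an entry for the 36 genes, against 15.4% of all 27305 promoters. Among genes called lower, 19 of 26 promoters held it, and 3 of the 4 that did not pass did so too. For the called genes with the smallest p and a match in the last 80 bases before the start, those 80 bases are given 5′ to 3′, with the element in capitals.
ANLN (chr7:36389782-36389861, plus strand): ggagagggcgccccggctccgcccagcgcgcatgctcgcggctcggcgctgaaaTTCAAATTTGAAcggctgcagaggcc
CENPA (chr2:26785976-26786055, plus strand): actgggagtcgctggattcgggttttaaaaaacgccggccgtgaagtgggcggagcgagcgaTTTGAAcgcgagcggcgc
HMMR (chr5:163460552-163460631, plus strand): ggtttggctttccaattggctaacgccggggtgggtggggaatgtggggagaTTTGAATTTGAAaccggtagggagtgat
KIF23 (chr15:69414269-69414348, plus strand): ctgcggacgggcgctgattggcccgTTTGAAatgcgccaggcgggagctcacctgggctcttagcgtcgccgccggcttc
BUB1B (chr15:40160989-40161068, plus strand): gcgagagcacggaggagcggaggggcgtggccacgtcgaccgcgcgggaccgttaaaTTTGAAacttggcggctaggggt
ANLN and HMMR carried 2 copies side by side in this window and the other 3 genes 1 copy. KIF23, a kinesin of the midzone, fell by 0.30 and BUB1B, a checkpoint kinase, by 0.37. A match describes the letters of the promoter and does not show binding.

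DNA replication genes changed less uniformly than mitosis genes. Of 38 measured, 15 were called lower and 2 higher (15 and 1 without library 3, and 1 higher also without control library 4 or 5), with a median of -0.13, and 1 of 32 promoters held the element. CCNA2, cyclin A2, had 179, 183 and 177 CPM in siRSAD2 libraries, against 235, 249 and 244 CPM in control libraries and fell by 0.43 ± 0.04. RFC5, a subunit of the clamp loader, fell by 0.55 ± 0.05, CDT1, a replication licensing factor, by 0.38 ± 0.07, and MCM7, a helicase subunit, by 0.22 ± 0.04. CCNE1, cyclin E1, went the other way and rose by 0.43 ± 0.10. PCNA, the sliding clamp, and RRM2, a ribonucleotide reductase subunit, did not pass, at -0.07 ± 0.04 and 0.03 ± 0.04. Among D-type cyclins and inhibitors, CDKN1B, the p27 inhibitor, fell by 0.39 ± 0.06 and CCND3, cyclin D3, rose by 0.30 ± 0.07, with 4 of 15 genes called higher and 4 lower. These counts were 2 higher without control library 6 and 2 lower without siRSAD2 library 1.

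Most genes for cytosolic ribosomal proteins fell. Of 78 measured, 58 were called lower and 0 higher (57 lower without library 3), with a median of -0.23. The count depended on single libraries, with 39 to 58 called lower as any 1 library was left out or none. RPL3, which lies at the peptidyl transferase centre, had 702, 766 and 760.5 CPM in siRSAD2 libraries, against 963, 1009.6 and 982 CPM in control libraries. RPS23, of the decoding site, had 524, 544 and 554 CPM in siRSAD2 libraries, against 755, 832 and 803 CPM in control libraries. RPS27A, a fusion of ubiquitin with a ribosomal protein, had 136, 150.3 and 152 CPM in siRSAD2 libraries, against 293, 312 and 300.2 CPM in control libraries. RPS27A fell furthest, by 1.05 ± 0.07, whereas RPL3 and RPS23 fell by 0.41 ± 0.05 and 0.56 ± 0.05. Ribosomal genes can share reads with near-identical processed pseudogenes, a class raised in library 3, so their levels are uncertain. Translation factors gave 14 lower and 1 higher of 34, among them EEF1A1, the elongation factor that delivers tRNA, which fell by 0.35 ± 0.05, and EIF4B, a helicase cofactor, by 0.45 ± 0.04. Ribosome biogenesis genes gave 7 lower and 1 higher of 32, with a median of 0.01. The higher count was 4 without control library 4, 3 without siRSAD2 library 2, 2 without siRSAD2 library 1 and 0 without control library 5.

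Respiratory chain genes also leaned lower. Of 48 nuclear-encoded subunits, 14 were called lower and 0 higher (12 lower without library 3, and 1 higher without siRSAD2 library 1), with a median of -0.12. SDHD, a membrane anchor of succinate dehydrogenase, had 26.7, 26.9 and 24.9 CPM in siRSAD2 libraries, against 54.2, 50.6 and 54.6 CPM in control libraries and fell by 1.02 ± 0.07, and UQCRB, of complex III, fell by 0.52 ± 0.07. MRPL18, a mitochondrial ribosomal protein, had 39.3, 43.8 and 42.98 CPM in siRSAD2 libraries, against 79.8, 83.8 and 84.6 CPM in control libraries and fell by 0.98 ± 0.06. It fell furthest of 43 mitochondrial ribosomal proteins, of which 35 did not pass, 7 were lower (16.3%) and 1 higher. Of 14860 protein-coding genes, 2167 were lower. As any 1 library was left out, 3 to 6 of the 43 were called lower and 0 to 2 higher. For SDHD and MRPL18 no siRSAD2 library overlapped the controls. Transcripts encoded by mitochondrial DNA gave 3 higher (23.1%) and 0 lower of 13, including MT-CO1, a subunit of cytochrome c oxidase, at 0.27 ± 0.09. That count was 0 without control library 5. Proteasome subunits gave 2 higher and 2 lower of 31, and 0 higher and 1 lower without library 3. With all libraries this was 6.45% each way, under the 9.82% higher and 9.72% lower of all genes tested. The higher count was 1 without control library 4 or 5, and the lower count was 1 without control library 4 and 0 without control library 5 or 6 or siRSAD2 library 1 or 2.

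**Figure D4:**
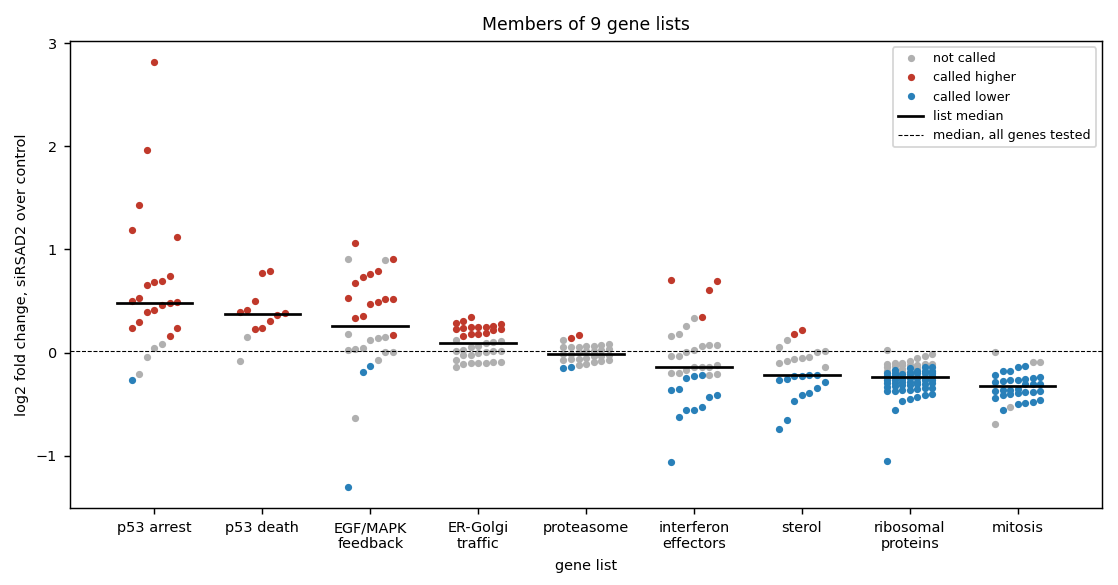
Log2 fold change of siRSAD2 over control (vertical axis) of every measured member of 9 gene lists (horizontal axis); red and blue points were called higher and lower, grey points did not pass, bars mark list medians and the dashed line the median over all genes tested (0.02). Medians run from 0.48 in p53 targets of arrest to -0.33 in mitosis genes, and 58 of 78 ribosomal proteins are blue.

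Genes of transport between the endoplasmic reticulum and the Golgi apparatus rose or did not pass. Viperin sits on the cytosolic face of the endoplasmic reticulum, where it is known to slow secretion. Of 38 measured, 16 were called higher and 0 lower in both fits (1 lower without control library 5), with a median of 0.10. COPG1, a coat subunit of vesicles that return from the Golgi, had 323, 341 and 336 CPM in siRSAD2 libraries, against 282, 269 and 275 CPM in control libraries. KDELR2, which retrieves chaperones to the endoplasmic reticulum, had 652, 643 and 641 CPM in siRSAD2 libraries, against 539, 516 and 529 CPM in control libraries. CREB3L2, a membrane-bound transcription factor of secretory genes, had 388, 358 and 358 CPM in siRSAD2 libraries, against 307, 274 and 292 CPM in control libraries. The groups did not overlap, and log2 rises were 0.28 ± 0.04, 0.29 ± 0.04 and 0.34 ± 0.06. SEC13, SEC31A and SEC24D, of the outward COPII coat, rose by 0.25, 0.25 and 0.23. GBF1, the exchange factor that loads the Arf GTPases and a known viperin partner, rose by 0.25 ± 0.05, as did its substrates ARF1 and ARF4, by 0.22 and 0.23.

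Chaperones of the endoplasmic reticulum gave 11 higher and 4 lower of 33 (9 and 4 without library 3). HSPA5, the chaperone BiP, rose by 0.31 ± 0.04, XBP1, a transcription factor of the unfolded protein response, by 0.34 ± 0.05, and HYOU1, a chaperone of the same response, by 0.24 ± 0.05. EDEM3, a mannosidase in degradation of misfolded glycoproteins, had 38.8, 32.1 and 34.1 CPM in siRSAD2 libraries, against 51.2, 60.3 and 55.7 CPM in control libraries and fell by 0.67 ± 0.07. Machinery that inserts proteins into the endoplasmic reticulum did not share the rise, with 1 higher and 7 lower of 32 (2 higher without siRSAD2 library 1). The 7 lower were 21.9% of the list, beside 9.72% of all genes tested and the larger share of protein-coding genes, 2167 of 14860. SRP14, of the signal recognition particle, fell by 0.32 ± 0.04, and SEC61A1, the translocation channel, rose by 0.19 ± 0.04. Genes of the ATF4 response split, with 10 higher and 6 lower of 26. ATF3, a stress transcription factor, rose by 0.69 ± 0.10 and SLC7A11, the cystine transporter, by 0.47 ± 0.06, whereas NUPR1, a stress-induced nuclear protein, fell by 0.69 ± 0.09 and ATF4 itself by 0.19 ± 0.04.

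Sterol synthesis genes fell more often than they rose. Of 25 measured, 13 were called lower and 2 higher (12 and 1 without library 3, and 1 higher also without control library 5 or 6), with a median of -0.22. HMGCS1, which makes the precursor of mevalonate, had 666, 701 and 649.6 CPM in siRSAD2 libraries, against 1082, 1110.4 and 1170.5 CPM in control libraries. FDPS, farnesyl diphosphate synthase and a known partner of viperin, had 275, 289 and 292 CPM in siRSAD2 libraries, against 448, 456 and 446 CPM in control libraries. INSIG1, which retains the sterol sensor in the endoplasmic reticulum, had 594, 644 and 588 CPM in siRSAD2 libraries, against 784, 821 and 822 CPM in control libraries. All 3 were lower in each siRSAD2 library, by 0.74 ± 0.05, 0.66 ± 0.04 and 0.41 ± 0.05 on the log2 scale. TM7SF2, a sterol reductase, was called higher and MVK, mevalonate kinase, lower with all libraries only.

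Genes of fatty acid synthesis and desaturation fell or did not pass. Of 15 measured, 6 were called lower and 0 higher in both fits (1 higher without siRSAD2 library 2). SCD, the stearoyl-CoA desaturase, had 3558, 3613 and 3564 CPM in siRSAD2 libraries, against 5428, 5136 and 5350.0 CPM in control libraries and fell by 0.57 ± 0.04. ACSL4, which activates polyunsaturated fatty acids, had 232, 238 and 222 CPM in siRSAD2 libraries, against 383, 402 and 389 CPM in control libraries and fell by 0.76 ± 0.05. FADS1 and FADS2, the desaturases of polyunsaturated fatty acids, fell by 0.32 and 0.33, and FASN, fatty acid synthase, did not pass, at -0.18 ± 0.07. Oxidation genes gave 3 lower (17.6%) and 1 higher (5.88%) of 17, with the same counts in both fits. Over all genes tested, 9.72% were lower and 9.82% higher, and among protein-coding genes the shares were larger, with 2167 lower and 1874 higher of 14860. ETFDH, which passes electrons from fatty acid oxidation to ubiquinone, fell by 0.53 ± 0.07, DECR1, a reductase for unsaturated fatty acids, by 0.27 ± 0.06, and ECI2, an enoyl-CoA isomerase, by 0.19 ± 0.05. CPT1A, which admits fatty acids to mitochondria, rose by 0.33 ± 0.05, and HADHB, the trifunctional protein subunit that viperin is known to bind, did not pass, at -0.12 ± 0.05. Of 17 viperin partners, 6 were lower (35.3%) and 1 higher (5.88%). Besides FDPS and GBF1, SQLE, squalene epoxidase, fell by 0.26 ± 0.04, VAPA, an anchor of lipid transfer proteins, by 0.18 ± 0.05, CIAO2A, of cytosolic iron-sulfur assembly, by 0.23 ± 0.05, and ATF6, a sensor of unfolded proteins, by 0.23 ± 0.05. MMS19, of the same iron-sulfur pathway, passed only with all libraries. TRAF6 and IRAK1, the signalling partners, and CIAO1 did not pass with all libraries.

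Interferon-stimulated effectors split in direction. Of 36 measured, 12 were called lower, 4 higher and 20 did not pass (10 lower and 5 higher without library 3), with a median of -0.14 and of -0.01 without library 3. The count of lower calls was 7 without siRSAD2 library 1 and 7 to 18 over all single libraries left out. IFIT1, which binds foreign RNA caps, had 55.1, 70.2 and 57.6 CPM in siRSAD2 libraries, against 85.7, 89.9 and 93.8 CPM in control libraries. PARP14, an ADP-ribosyltransferase, had 100.0, 90.7 and 93.9 CPM in siRSAD2 libraries, against 129, 125 and 128 CPM in control libraries. EPSTI1, an epithelial-stromal interaction gene, had 9.51, 13.4 and 9.55 CPM in siRSAD2 libraries, against 18.6, 15.9 and 15.4 CPM in control libraries. These 3 genes were lower in every siRSAD2 library, by 0.56 ± 0.08, 0.43 ± 0.06 and 0.63 ± 0.12. HERC5, the ligase that attaches ISG15, had 20.2, 22.2 and 21.6 CPM in siRSAD2 libraries, against 12.7, 13.5 and 16.01 CPM in control libraries. OASL, an antiviral protein related to oligoadenylate synthetases, had 22.1, 24.6 and 21.04 CPM in siRSAD2 libraries, against 9.97, 13.6 and 18.5 CPM in control libraries. Both were higher in every siRSAD2 library, by 0.61 ± 0.09 and 0.70 ± 0.14, and IFIT2, related to IFIT1, rose by 0.35 ± 0.08. BST2, tetherin, was called higher although library ranges overlapped, with 4.04, 6.53 and 3.06 CPM in siRSAD2 libraries, against 3.90, 2.55 and 1.76 CPM in control libraries. MX1, OAS1 and ISG15, antiviral genes that interferon induces strongly elsewhere, did not pass, at -0.19 ± 0.17, -0.21 ± 0.18 and -0.14 ± 0.16.

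Many promoters of these genes hold the core of the interferon-stimulated response element, which binds STAT and IRF factors. The core was searched as GAAANNGAA on both strands and found in 22 of 30 effector promoters, against 8.29% of all 27305 promoters. It was present in 7 of 11 promoters of genes called lower, in both of the genes called higher that had an entry, and in 13 of 17 that did not pass. The 80 bases before the start are given for 2 genes that fell and 1 that rose, with the match in capitals, to show that the element stood in promoters of both directions.
PARP14 (chr3:122680759-122680838, plus strand): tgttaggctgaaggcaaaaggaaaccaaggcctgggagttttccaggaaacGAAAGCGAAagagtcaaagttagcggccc
EPSTI1 (chr13:42992242-42992321, minus strand): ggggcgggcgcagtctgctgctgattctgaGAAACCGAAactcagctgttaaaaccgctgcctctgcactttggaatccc
HERC5 (chr4:88457039-88457118, plus strand): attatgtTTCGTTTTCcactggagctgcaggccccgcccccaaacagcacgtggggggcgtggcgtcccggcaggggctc
In HERC5 the match lay on the opposite strand, 65 to 73 bases before the start. It lay 21 to 29 bases before the start in PARP14 and 42 to 50 bases before it in EPSTI1.

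Interferon signalling genes gave 5 lower (27.8%) and 0 higher calls of 18, with IFNGR1, a chain of the interferon gamma receptor, at -0.20 ± 0.06. The lower calls numbered 3 without control library 5 or 6 or siRSAD2 library 1 or 2. Antigen presentation by MHC class I gave 4 lower (19.0%) and 1 higher (4.76%) of 21. B2M, the light chain of class I molecules, had 381, 426 and 402 CPM in siRSAD2 libraries, against 484, 559.8 and 524 CPM in control libraries and fell by 0.38 ± 0.05. TLR3, a sensor of double-stranded RNA, fell by 0.44 ± 0.08 and RIGI, a cytosolic sensor, rose by 0.27 ± 0.09. Sensors gave 2 higher and 2 lower of 13 (15.4% each way), beside 9.82% higher and 9.72% lower of all genes tested. Shares among protein-coding genes alone were larger, with 1874 higher and 2167 lower of 14860, so the sensor shares lay close to them. The higher sensor calls numbered 0 without control library 4 or 5 or siRSAD2 library 2 and 1 without siRSAD2 library 1 or 3.

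Cytokine genes other than CXCL12 rose or did not pass. Of 28 measured, 6 were called higher and 1, CXCL12, lower (7 and 1 without library 3). PTX3, a soluble pattern recognition molecule, had 84.7, 85.4 and 86.97 CPM in siRSAD2 libraries, against 31.2, 31.6 and 30.00 CPM in control libraries. TNFRSF11B, the decoy receptor osteoprotegerin, had 246, 239 and 244 CPM in siRSAD2 libraries, against 129.9, 135 and 125 CPM in control libraries. CXCL8, interleukin 8, had 6.12, 5.57 and 5.66 CPM in siRSAD2 libraries, against 2.79, 2.77 and 2.36 CPM in control libraries. Every siRSAD2 library was above every control library for all 3, and the log2 rises were 1.47 ± 0.07, 0.90 ± 0.05 and 1.13 ± 0.15. IL11 rose by 0.56 ± 0.12 and CSF1, a macrophage growth factor, by 0.23 ± 0.08. IL6 was measured below 1 CPM in both groups. Of complement genes 7 were lower and 2 higher of 14, and the lower count was 2 without control library 5, 3 without control library 6 or siRSAD2 library 2, 4 without siRSAD2 library 1 and 5 without siRSAD2 library 3. Besides C3, C4A and C4B fell by 0.75 and 0.80, although these near-identical copies share reads, and CD55, a complement inhibitor of the cell surface, rose by 0.39 ± 0.07. PTGES, a prostaglandin E synthase, rose by 0.63 ± 0.12, and PTGIS, prostacyclin synthase, fell by 1.31 ± 0.23.

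Matrix genes changed in both directions. Of 20 collagens, 10 were called higher and 2 lower (11 and 2 without library 3), with a median of 0.22. COL12A1, a fibril-associated collagen, had 463, 401 and 416 CPM in siRSAD2 libraries, against 305, 284 and 292 CPM in control libraries and rose by 0.54 ± 0.05. COL4A1 and COL4A2, of basement membranes, rose by 0.35 and 0.22, and COL3A1, a fibrillar collagen, fell by 0.25 ± 0.04. Matrix glycoproteins gave 11 higher and 8 lower of 30. SERPINE2, an inhibitor of thrombin and plasminogen activators, had 2027, 1964 and 1942 CPM in siRSAD2 libraries, against 860.4, 898 and 870.4 CPM in control libraries. THBS1, thrombospondin 1, had 1318, 1257 and 1284 CPM in siRSAD2 libraries, against 1001, 822 and 811 CPM in control libraries. LUM, a proteoglycan that spaces collagen fibrils, had 242, 219.5 and 248 CPM in siRSAD2 libraries, against 362, 391 and 377 CPM in control libraries. The first pair rose by 1.17 ± 0.04 and 0.55 ± 0.06, LUM fell by 0.67 ± 0.05, and no library overlapped the other group. DCN, a related proteoglycan, fell by 0.80 ± 0.08, and SPARC, a matricellular protein, by 0.35 ± 0.03.

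Proteases and their inhibitors rose more often than they fell. Plasminogen and coagulation genes gave 10 higher and 3 lower of 16 (10 and 2 without library 3), with a median of 0.49. TFPI2, a Kunitz-type protease inhibitor, had 536, 528 and 515 CPM in siRSAD2 libraries, against 204, 211 and 203 CPM in control libraries. PLAU, urokinase, had 74.6, 80.5 and 81.4 CPM in siRSAD2 libraries, against 51.8, 52.1 and 50.3 CPM in control libraries. Both were above the controls in every siRSAD2 library and rose by 1.35 ± 0.06 for TFPI2 and 0.62 ± 0.06 for PLAU. DPP4, a serine peptidase related to FAP, had 54.1, 53.8 and 54.4 CPM in siRSAD2 libraries, against 104, 107 and 99.4 CPM in control libraries and fell by 0.94 ± 0.05. Among metalloproteases, 9 were higher and 5 lower of 26. ADAMTS1 and ADAMTS5, which cut proteoglycans, rose by 0.83 and 0.83, and MMP16, a membrane-bound enzyme, by 0.86 ± 0.08. MMP2, gelatinase A, had 54.4, 51.1 and 48.7 CPM in siRSAD2 libraries, against 89.7, 82.5 and 82.1 CPM in control libraries and fell by 0.72 ± 0.06, and TIMP2, its inhibitor, fell by 0.49 ± 0.05.

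Integrins split by subunit, with 5 called higher and 6 lower of 17 measured (5 and 4 without library 3). ITGB3, the beta chain of vitronectin receptors, had 22.4, 24.2 and 23.3 CPM in siRSAD2 libraries, against 50.6, 43.2 and 46.7 CPM in control libraries and fell by 1.01 ± 0.07. ITGA6, a laminin receptor chain, had 461, 425 and 429 CPM in siRSAD2 libraries, against 280.4, 284 and 282 CPM in control libraries and rose by 0.64 ± 0.05. ITGA2, a collagen receptor chain, rose by 0.63 ± 0.05, and ITGB8, which activates TGF-beta, fell by 0.72 ± 0.06. Hyaluronan genes gave 6 higher and 3 lower of 14. HAS2, a hyaluronan synthase, had 11.1, 10.03 and 11.4 CPM in siRSAD2 libraries, against 2.97, 2.91 and 4.16 CPM in control libraries and rose by 1.71 ± 0.13, and CEMIP, which degrades hyaluronan, rose by 0.55 ± 0.06. Of 20 angiogenic factors and receptors, 10 were higher and 3 lower (10 and 1 without library 3, and 1 lower also without control library 5 or 6 or siRSAD2 library 2). KDR, a receptor for VEGF, had 9.20, 8.45 and 8.82 CPM in siRSAD2 libraries, against 4.11, 4.75 and 3.99 CPM in control libraries and rose by 1.04 ± 0.12, VEGFC rose by 0.46 ± 0.05, and VEGFB fell by 0.36 ± 0.08. KDR was the only one of 9 measured endothelial markers to pass, and PECAM1 and CDH5, which define endothelium, averaged under 2 CPM in both groups.

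**Figure D5:**
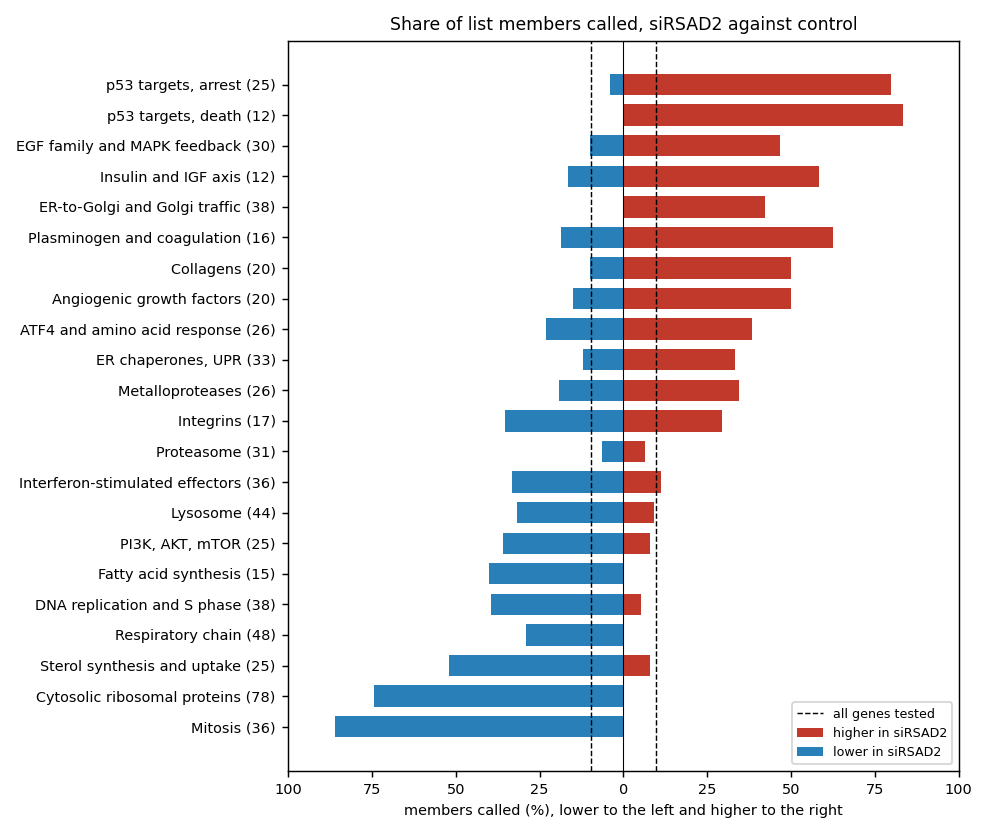
Share of measured members of 22 gene lists called lower (blue, to the left) and higher (red, to the right) in siRSAD2 cells (horizontal axis, %), with the number measured in brackets; dashed lines mark the shares over all genes tested (9.72% lower and 9.82% higher). Of 14860 protein-coding genes alone, 1874 were called higher and 2167 lower, which are larger shares than the dashed lines mark. p53 targets lie furthest to the right and mitosis genes and ribosomal proteins furthest to the left.

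Many genes of the EGF family and of MAPK feedback rose. Of 30 measured, 14 were called higher and 3 lower (14 and 2 without library 3), with a median of 0.26. DUSP6, the phosphatase that inactivates ERK, had 117, 123 and 119.6 CPM in siRSAD2 libraries, against 71.1, 76.1 and 78.5 CPM in control libraries. SPRY4, a feedback inhibitor of receptor signalling, had 54.8, 54.8 and 55.6 CPM in siRSAD2 libraries, against 32.6, 32.97 and 34.2 CPM in control libraries. FOSL1, an AP-1 subunit stabilised by ERK, had 65.2, 62.9 and 65.2 CPM in siRSAD2 libraries, against 37.9, 37.1 and 39.1 CPM in control libraries. The 3 genes were higher in each siRSAD2 library, by 0.67 ± 0.05, 0.73 ± 0.06 and 0.76 ± 0.06. HBEGF, a ligand of the EGF receptor, had 19.1, 18.2 and 17.1 CPM in siRSAD2 libraries, against 10.8, 10.5 and 10.2 CPM in control libraries and rose by 0.79 ± 0.09. EGR1, an immediate early transcription factor, fell furthest of the 3 called lower, by 1.31 ± 0.07 on the log2 scale. It had 27.2, 25.6 and 21.5 CPM in siRSAD2 libraries, against 64.4, 58.5 and 60.7 CPM in control libraries. The lower count was 1 without control library 4, 5 or 6 or siRSAD2 library 2. JUN and FOS did not pass, at 0.03 ± 0.05 and 0.12 ± 0.14.

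Insulin and IGF genes gave 7 higher and 2 lower of 12 (7 and 1 without library 3, and 1 lower also without siRSAD2 library 2 or control library 4, 5 or 6). IRS1, the substrate of insulin and IGF receptors, had 91.9, 92.02 and 92.1 CPM in siRSAD2 libraries, against 58.6, 56.4 and 54.8 CPM in control libraries and rose by 0.70 ± 0.06. IGFBP3 and IGFBP5, which bind IGF, rose by 0.96 ± 0.07 and 0.95 ± 0.07, and INSR, the insulin receptor, did not pass, at 0.11 ± 0.07. Called PI3K pathway genes leaned lower, with 9 lower and 2 higher of 25, and 5 lower without siRSAD2 library 2. The other 14 did not pass, and the list median was -0.03, beside 0.02 over all genes tested. INPP5D changed most in the list and rose by 1.54 ± 0.20, with 3.06 ± 0.479 CPM in siRSAD2 cells and 1.07 ± 0.308 CPM in control cells. PIK3CB, a catalytic subunit of PI3K, had 36.3, 32.4 and 32.7 CPM in siRSAD2 libraries, against 61.4, 57.6 and 65.1 CPM in control libraries. It fell by 0.86 ± 0.06. PIK3CA, the subunit whose H1047R form was given by plasmid to other groups of the series, fell by 0.21 ± 0.05. INPP4B, a lipid phosphatase of the pathway, rose by 0.55 ± 0.07, and PIK3IP1, an inhibitor of PI3K, had 8.85, 8.53 and 8.85 CPM in siRSAD2 libraries, against 15.3, 17.9 and 18.2 CPM in control libraries and fell by 0.97 ± 0.10. PIK3CB and PIK3IP1 were lower in every siRSAD2 library.

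Several single genes in other pathways changed strongly. HHIP, which binds Hedgehog ligands, had 24.5, 21.98 and 20.1 CPM in siRSAD2 libraries, against 8.65, 6.94 and 6.26 CPM in control libraries and rose by 1.60 ± 0.14. NOTCH1 rose by 0.78 ± 0.09, and DKK1, an inhibitor of Wnt signalling, had 532, 532 and 539.9 CPM in siRSAD2 libraries, against 287, 299 and 282 CPM in control libraries and rose by 0.89 ± 0.05. GDF15, a stress-induced cytokine of the TGF-beta family that p53 also induces, had 20.7, 21.6 and 19.1 CPM in siRSAD2 libraries, against 6.72, 7.87 and 5.58 CPM in control libraries and rose by 1.60 ± 0.10. MCL1, an anti-apoptotic BCL2 protein, had 144, 139.7 and 138 CPM in siRSAD2 libraries, against 246, 252 and 251 CPM in control libraries and fell by 0.83 ± 0.05, whereas BCL2L1, another, rose by 0.44 ± 0.05. BNIP3L, a receptor for mitophagy, had 179, 176 and 172 CPM in siRSAD2 libraries, against 335, 359 and 367 CPM in control libraries and fell by 1.01 ± 0.06. In the lysosome, 14 of 44 genes were lower and 4 higher, with CTSB, cathepsin B, at -0.68 ± 0.05 and SCARB2, a lysosomal membrane receptor, at -0.68 ± 0.04. Linker histone H1-2 had 76.95, 81.2 and 87.9 CPM in siRSAD2 libraries, against 42.3, 41.4 and 41.8 CPM in control libraries and rose by 0.97 ± 0.06, although most replication-dependent histone mRNAs lack poly(A) tails and poly(A) libraries capture them poorly.

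Levels in the other 9 siRSAD2 libraries are given beside the 2 groups compared; they share the same 3 controls and differ in insulin and PIK3CA H1047R, so no test was made. RSAD2 lay between 0.129 and 1.41 CPM in those 9 libraries, under the lowest control library at 3.003 CPM. FSTL1 lay between 132 and 167 CPM and GJA1 between 78.4 and 101 CPM, near the levels of siRSAD2 vehicle libraries. C3 ranged from 9.65 to 14.4 CPM and CXCL12 from 31.3 to 45.0 CPM. For these genes the 9 libraries and the 3 siRSAD2 vehicle libraries were all below the controls. DMBT1 ranged from 4.41 to 8.32 CPM and ANXA10 from 29.5 to 56.5 CPM, all above the controls. CDKN1A ranged from 424 to 687 CPM and MDM2 from 343 to 515 CPM, above all controls. CCNB1 ranged from 369 to 418 CPM and FDPS from 282 to 308 CPM, below all controls. Of the leading genes, PTGER4 and MTFP1 overlapped the controls in these libraries. PTGER4 reached down to 0.407 CPM, under the control mean of 0.425 CPM, and MTFP1 reached up to 1.79 CPM, above the lowest control library at 1.44 CPM.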

How the data were processed

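RNA-seq was performed on 15 libraries of 12Z cells, 3 in each of 5 groups. The authors deposited unnormalized read counts per gene from STAR, aligned to hg38 after adapter trimming; versions are not given in the sources used here, and the gene annotation release is numbered in the methods as a mouse release. Of 60617 gene identifiers, 60357 matched GENCODE 44, which supplied names and biotypes. Reverse-stranded counts were used, without the 4 summary rows per file, and levels are CPM, counts relative to library size after TMM scaling.

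Genes averaging 1 count or more over all 15 libraries were tested with edgeR 4.0.16 in R 4.3.3 (quasi-likelihood F test, 5 groups sharing 1 estimate of spread, 10 residual degrees of freedom), with Benjamini-Hochberg adjusted p below 0.05 as the threshold over all genes. Fold changes are siRSAD2 over control, so positive log2 values are higher in siRSAD2 cells. Replicate libraries differed by more than sampling noise (chi-square per degree of freedom of 3.25 to 6.52). In simulated counts for 22612 genes, 50 genes above a count floor were changed at each fold. Of these, 62% of 1.25-fold, 72% of 1.5-fold, 94% of 2-fold and 98% of 3-fold changes were recovered, with 8.94% false calls. Far fewer genes were changed there than were called in the data, and no library was made to stand apart. These shares therefore describe the simulation and may not hold for the real calls. A total of 26.3 to 29.3 M counts in siRSAD2 libraries and 24.3 to 29.2 M in control libraries limits precision for genes near 1 CPM.

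Gene lists and members were chosen with earlier results of these data known. Named by rule were RSAD2, the 12 largest rises and 12 largest falls (called with and without siRSAD2 library 3, mean of at least 1 CPM, no overlap of libraries), the 3 members of each list with the smallest p, viperin partners and markers. Other list members were chosen after their values were seen. List counts and medians are descriptions, and no list was tested. Alternatives were DESeq2 1.42.0, RLE size factors, other count filters, the 6 libraries alone, unstranded counts, protein-coding genes only, an adjusted p of 0.001 and each library left out. Some members of the gene lists are counted but not reported here by name.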

Additional observations from a re-analysis of the deposited data

How the results depend on the processing

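At an adjusted p below 0.001 the number of called genes moved by more than 1.5 times, to 1761, 824 higher and 937 lower. Most counts of higher or lower members per gene list depended on this threshold too. At 0.001, 72 of these list counts moved by more than 1.5 times and 50 did not. Called rises of at least 2-fold, 639 in the report, numbered 421 with DESeq2, 377 with protein-coding genes only, 425 without control library 5, 368 without siRSAD2 library 3 and 159 at an adjusted p below 0.001. Such falls, 97 in the report, numbered 64 with protein-coding genes only or without control library 6 and 43 at an adjusted p below 0.001. With DESeq2 4112 genes passed (2028 higher and 2084 lower), with only the 6 libraries compared 4763, with unstranded counts 4307 and with protein-coding genes only 4409. With 1 library left out, called genes numbered 3413 to 4010 (higher 1644 to 2282, lower 1573 to 1983). Alternatives chosen after seeing the data left out siRSAD2 library 3 with DESeq2, which called 3333 genes, or among protein-coding genes only, which called 3615. Of genes named, signs turned only for 5 as single libraries were left out. The log2 fold change ran from -0.32 (without siRSAD2 library 3) to 4.55 for LCP1 and from -0.038 (without siRSAD2 library 3) to 2.19 for PTPRC. For genes that did not pass it ran from -0.11 to 0.57 for CMPK2, from -0.42 to 0.039 for ISG15 and from -0.76 to 0.23 for EPCAM, which was also 0.04 without siRSAD2 library 1. Small lists and genes near 1 CPM are limited by depth. No paired analysis was possible because control libraries are numbered 4 to 6 and siRSAD2 libraries 1 to 3, so the groups share no replicate number.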

Other observations

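Iron genes changed in both directions. Of 14 genes of iron uptake, storage and sensing, 7 were called lower and 4 higher (6 and 3 without siRSAD2 library 3). SLC40A1, the iron exporter ferroportin, had 5.25, 5.38 and 5.83 CPM in siRSAD2 libraries, against 9.65, 7.44 and 10.3 CPM in control libraries and fell by 0.73 ± 0.14 on the log2 scale. STEAP3, a ferrireductase of endosomes, had 15.7, 19.02 and 19.9 CPM in siRSAD2 libraries, against 29.5, 25.5 and 28.5 CPM in control libraries and fell by 0.61 ± 0.09. HMOX1, heme oxygenase 1, rose by 0.33 ± 0.08, and TFRC, the transferrin receptor, passed only with all libraries. Targets of the antioxidant factor NRF2 gave 8 higher and 3 lower of 27, with 5 higher without control library 5 and 1 lower without control library 6 or siRSAD2 library 1 or 2. GCLM, a subunit of the enzyme that limits glutathione synthesis, had 55.7, 56.5 and 62.3 CPM in siRSAD2 libraries, against 39.5, 38.04 and 40.7 CPM in control libraries and rose by 0.56 ± 0.07.

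Stromal genes also split. ACTA2, smooth muscle actin, had 11.9, 11.9 and 10.9 CPM in siRSAD2 libraries, against 5.51, 6.29 and 5.58 CPM in control libraries and rose by 1.00 ± 0.11, and NT5E, the ectonucleotidase CD73, had 237, 239.6 and 233 CPM in siRSAD2 libraries, against 154, 154 and 144 CPM in control libraries and rose by 0.65 ± 0.05. TCF21, a transcription factor of stromal progenitors, had 2.18, 1.88 and 1.60 CPM in siRSAD2 libraries, against 1.001, 0.611 and 0.558 CPM in control libraries and rose by 1.37 ± 0.26, at low counts. PDGFRA, a receptor for PDGF, had 15.9, 14.5 and 14.2 CPM in siRSAD2 libraries, against 23.8, 19.5 and 22.7 CPM in control libraries and fell by 0.56 ± 0.09. Targets of YAP and TAZ gave 9 higher and 4 lower of 28, with 2 lower without control library 4 or 5 or siRSAD2 library 2 and 1 without control library 6. CCN2, connective tissue growth factor, was at 0.93 ± 0.06. Desmosome genes PKP2 and DSG2 fell by 0.63 ± 0.06 and 0.32 ± 0.05. FKBP5, a cochaperone that glucocorticoid and progesterone receptors induce, had 74.5, 73.9 and 71.03 CPM in siRSAD2 libraries, against 100.1, 97.3 and 101 CPM in control libraries and fell by 0.44 ± 0.05, and GREB1, a gene that estrogen induces, had 4.63, 6.95 and 4.48 CPM in siRSAD2 libraries, against 2.90, 3.31 and 2.02 CPM in control libraries and rose by 0.94 ± 0.17, while ESR1 and PGR, the estrogen and progesterone receptors, did not pass.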
